A study of Mus musculus with 24 samples.

Results

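Contacts of Argonaute 2 (AGO2) that carry a 6-nucleotide (6-nt) seed match to miR-155, and no 7-nt or 8-nt seed site, are described here. They were found among the AGO2 peaks of activated mouse CD4+ T cells that lack miR-155 and of wild-type cells. A peak was taken when its deposited sequence held no 7-nt or 8-nt seed site of miR-155 but held a 6mer (complement of nucleotides 2 to 7), an offset 6mer (nucleotides 3 to 8) or a 6mer-A1 (nucleotides 2 to 6, followed by A). Peaks with several classes were counted in the first of these. This gave 561 of 14634 peaks, in 481 genes: 102 6mer, 213 offset 6mer and 246 6mer-A1 peaks. The choice used sequence alone, not reads.

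The groups were 12 libraries from miR-155 KO (knockout) and 12 from WT (wild-type) CD4+ T cells, all of the C57BL/6 strain. The cells were taken from spleen and lymph nodes and cultured for 4 days with antibodies against CD3 and CD28 (1 µg/mL) and with IL-2 (20 U/mL). AGO2 was immunoprecipitated after limited RNase digestion and the RNA held by it was sequenced, an assay called HITS-CLIP. Each genotype had 6 libraries with linker 1 and 6 with linker 2, and the deposited reads pool all 12. The table thus gives 1 value per genotype and peak, with no replicate error. Each library is labelled a biological replicate; the labels do not say whether each came from its own mouse.

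MicroRNAs guide Argonaute to messenger RNAs, mostly in 3' untranslated regions (3' UTRs), by pairing of the seed, the nucleotides near their 5' end. Longer seed matches are in general bound and repressed more strongly, and 6-nt matches are the weakest of the canonical types. miR-155 comes from the Mir155 host gene, is induced when lymphocytes are activated, and is known for its part in helper T cell responses.

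Mature miR-155-5p is shown because every site below is read against it, with the seed (bases 2 to 8) in capitals (RefSeq, GRCm38.p6, chromosome 16, 84714143 to 84714165, plus strand).
mmu-miR-155-5p: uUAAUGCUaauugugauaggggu
The letters searched on the transcript strand were GCATTA (6mer), AGCATT (offset 6mer) and CATTAA (6mer-A1), after exclusion of AGCATTAA (8mer), AGCATTA (7mer-m8) and GCATTAA (7mer-A1). The motifs overlap: as bare letters, longer sites included, GCATTA was in 2.51% of all peaks, AGCATT in 2.59% and CATTAA in 2.89%.

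The sites of the 11 peaks that were lower in KO cells at an adjusted p below 0.05 are shown, with the 6-nt match in capitals, because they carry the main result. Coordinates are those of the 6 capitals on GRCm38, from exact matches of the peak sequences to GENCODE M21 transcripts. All lay in annotated 3' UTRs, in the last exon of the transcript.
Maf peak 1 (chr8:115704755-115704760, minus strand): caaacttactctcatctcatGCATTAcgat
Aff4 peak 7 (chr11:53416226-53416231, plus strand): tgactacattgcatctaatGCATTAcaaaa
P2ry10 peak 5 (chrX:107104614-107104619, plus strand): atatcataactcacataattGCATTAgaaa
P2ry10 peak 2 (chrX:107103675-107103680, plus strand): ttccaatttaaaatttatgGCATTAtatta
Taok3 peak 1 (chr5:117275042-117275047, plus strand): tatctgtggtcataaatattGCATTAtcca
Sh3kbp1 peak 2 (chrX:159974126-159974131, plus strand): ctattgcgtgaacagaatatGCATTAttaa
Icos peak 4 (chr1:60998255-60998260, plus strand): atatactttatcgaactcatGCATTAgaac
Rc3h2 peak 10 (chr2:37374191-37374196, minus strand): ttaatttgggtgttcattGCATTAtttagt
Ddx42 peak 1 (chr11:106248806-106248811, plus strand): accaaccccaacagtAGCATTcaaagtgtc
Wnk1 peak 1 (chr6:119925834-119925839, minus strand): cctttcttacataggtCATTAAtgctttaa
Hif1a peak 4 (chr12:73945907-73945912, plus strand): tcccctttctacttaattttCATTAAtgct

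For contrast, these are well-read peaks with the same 6 letters and a log2 difference between the genotypes under 0.5 in size, the best-read of each class. The Cdkn1b peak holds 2 such matches, and only the match nearer the peak centre is in capitals.
Otud4 peak 25 (chr8:79677624-79677629, plus strand): gccctacatggtgtgatgctGCATTAtata
Cdkn1b peak 10 (chr6:134924435-134924440, plus strand): aaaagcattggatgtAGCATTgcgcaatta
Anln peak 2 (chr9:22332793-22332798, minus strand): gatatccatgctaaatataaCATTAAgagt

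Over all peaks the scaled reads summed to 374130 in KO and 371090 in WT cells (5 significant digits). Peaks were listed in the 3' UTRs of 6 of 8 CD4+ T cell marker genes (Cd4, Cd3e, Cd3g, Cd28, Icos and Il2ra, not Cd5 and Cd40lg), with 5837 scaled reads in KO and 4046 in WT cells. Il2ra without its peak 2 held 3248 and 1903 of these, so the sums do not speak for each marker. No peak was listed for any of 5 markers each of B cells, of CD8 T and NK cells, of myeloid cells, and of erythroid cells and platelets. Reads per library are not known, and reads are therefore printed without an interval. Fewer cells of a type and less RNA per cell cannot be told apart in such bulk samples.

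Of the 11 6-nt-only peaks that were lower in KO cells, most belonged to the 6mer class. Of 102 6mer peaks, 8 in 7 genes (7.84%) were lower in KO cells at an adjusted p below 0.05 (authors' deposited p-values, Benjamini-Hochberg over all 14634 peaks). Only 1 of 213 offset 6mer peaks (0.469%) and 2 of 246 6mer-A1 peaks (0.813%) were. The background over all peaks was 0.574%, which includes 59 called peaks with a 7-nt or 8-nt site, and 0.101% of the peaks without a miR-155 match were called. The offset 6mer and 6mer-A1 shares, from 1 and 2 peaks, thus lay near the share of all peaks and above that of peaks without a match; neither difference was tested. Within the peaks of at least 20 scaled reads, which all 11 were, the shares were 15.1%, 1.25% and 1.96% against a background of 1.24% over all such peaks and 0.209% of those without a match. None of the 561 peaks was higher in KO cells at that threshold, against a background of 0.0273%. At an unadjusted p below 0.05 in the authors' deposited table, 19 6mer peaks (18.6%) were lower in KO cells and 0 higher. The same counts were 11 (5.16%) and 0 for offset 6mers, 10 (4.07%) and 1 (0.407%) for 6mer-A1 peaks. The backgrounds were 2.72% lower and 1.48% higher over all peaks.

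Among the 3 classes, 6mers had the largest share of peaks listed at 0 in KO cells. There, 34 of 102 6mer peaks (33.3%) were listed at 0, and 2 (1.96%) in WT cells. Of the offset 6mers, 48 (22.5%) were listed at 0 in KO cells and 19 (8.92%) in WT cells, and of the 6mer-A1 peaks 58 (23.6%) and 17 (6.91%). Over all peaks the shares were 16.6% and 7.87%, and over peaks with a 7-nt or 8-nt site 58.5% and 1.13%. Summed over all members of a class, 6mer peaks held 1673 scaled reads in KO and 2953 in WT cells. The sums were 3657 and 4246 for offset 6mers and 4178 and 5118 for 6mer-A1 peaks.

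The log2 difference used here is KO over WT on the scale log2(1 + scaled reads), so that a negative value means fewer reads in KO cells; the deposited ratio has the opposite sign. Over all members with no minimum, the median was -1.17 for 6mers, -0.29 for offset 6mers and -0.42 for 6mer-A1 peaks, beside -0.20 over all peaks. A value of -1 or below was found in 57 6mer (55.9%), 77 offset 6mer (36.2%) and 89 6mer-A1 peaks (36.2%), where the background was 30.1%. A value of 1 or above was found in 5 (4.90%), 34 (16%) and 32 (13%), with a background of 17.6%.

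A minimum of 20 scaled reads in both genotypes together was passed by 53 6mer, 80 offset 6mer and 102 6mer-A1 peaks, and 326 members stayed below it. Some passed through 1 genotype: 20 of the 53 6mers had 10 or more reads in WT cells and fewer than 10 in KO cells, and 3 the reverse. For offset 6mers these numbers were 10 and 8, and for 6mer-A1 peaks 15 and 7. The values over peaks above the minimum are therefore a description. Their median log2 KO over WT was -0.71 for 6mers (quartiles -2.67 and 0.00), -0.06 for offset 6mers (-0.82 and 0.34) and -0.19 for 6mer-A1 peaks (-0.59 and 0.28), beside 0.00 over all 6597 such peaks. Leaving out peaks listed at 0 in a genotype, and with no pseudocount, the medians were -0.68, -0.05 and -0.19. A log2 of -1 or below was found in 22 of the 53 6mers (41.5%, exact 95% interval 28.1 to 55.9%, counting error over peaks only). It was found in 12 of 80 offset 6mers (15%, 8.0 to 24.7%) and 16 of 102 6mer-A1 peaks (15.7%, 9.24 to 24.2%), and the background was 14.0%. With a minimum of 50 scaled reads the shares were 32.1% of 28 6mers, 2.70% of 37 offset 6mers and 8.89% of 45 6mer-A1 peaks. At 1 or above were 2, 9 and 6 peaks, or 3.77%, 11.3% and 5.88%, beside a background of 10.1%. Peaks with a 7-nt or 8-nt site had 80.6% at -1 or below, and peaks without a miR-155 match 12.3%. The median over the peaks without a match was 0.03, and 10.3% of them were at 1 or above. No test of 1 class against another was made, since the peaks come from the same pooled libraries and several share a gene.

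**Figure D1:**
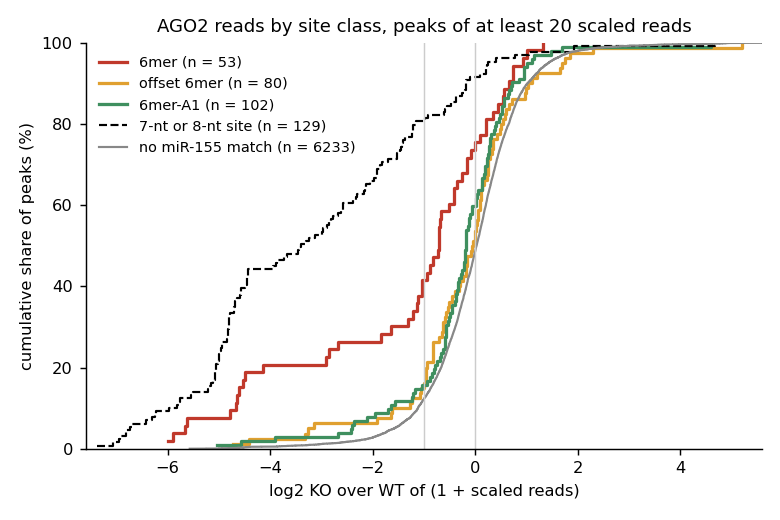
Cumulative share of peaks (y axis, %) by the log2 KO over WT difference of 1 + scaled reads (x axis), for peaks of at least 20 scaled reads. The 6mer line lies between the lines of longer sites and of peaks without a match, with 41.5% of its peaks at -1 or below. At -1 the offset 6mer (15%) and 6mer-A1 (15.7%) lines run close to the peaks without a match (12.3%). Below 0 lie 59.8% of 6mer-A1 and 52.5% of offset 6mer peaks, beside 48.7% of peaks without a match.

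The 8 lowered 6mer peaks lay in Maf, Aff4, P2ry10, Icos, Rc3h2, Sh3kbp1 and Taok3. Maf, which encodes a c-MAF family transcription factor, was listed at 0 scaled reads in KO cells and had 62.9 in WT cells at peak 1 (adjusted p = 1.30e-05). Its other peak held 29.7 scaled reads in KO and 9.38 in WT cells. Aff4, a scaffold of the super elongation complex of transcription, had 1.04 scaled reads in KO and 121 in WT cells at peak 7 (log2 -5.90, adjusted p = 3.33e-08). The other 30 peaks of Aff4 together held 1169 and 1122, so the rest of the 3' UTR did not show a like difference.

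P2ry10, a receptor gene of the G protein-coupled class, had a pair of lowered 6mer peaks in 1 3' UTR. Peak 5 had 2.87 scaled reads in KO and 196 in WT cells (log2 -5.67, adjusted p = 2.59e-15). Peak 2 was listed at 0 in KO cells and had 48.3 in WT cells (adjusted p = 3.08e-07). The 4 peaks of P2ry10 other than peak 5, peak 2 among them, summed to 54.6 in KO and 124 in WT cells. These peaks share a transcript and are not independent members.

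Icos, the inducible costimulatory receptor, and Rc3h2, which encodes the RNA-binding protein Roquin-2, also held lowered 6mer peaks. Icos had 7.77 scaled reads in KO and 64.8 in WT cells at peak 4 (log2 -2.91, adjusted p = 0.0277), while its other 11 peaks summed to 297 and 280.0. Rc3h2 had 10.45 scaled reads in KO and 39.7 in WT cells at peak 10 (log2 -1.83, adjusted p = 0.0161). The other 18 peaks of Rc3h2 summed to 183 in KO and 344 in WT cells, so the lower level was not limited to peak 10. Much of that difference lay in 1 of them, peak 1 with a 7-nt site, which had 0.634 and 123.

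Sh3kbp1 and Taok3 held the remaining lowered 6mer peaks. Sh3kbp1, an adaptor that binds CBL proteins, had 3.0 scaled reads in KO and 91.8 in WT cells at peak 2 (log2 -4.54, adjusted p = 5.51e-05), and 32.3 and 29.2 over its other 3 peaks. Taok3, a kinase of the STE20 family, was listed at 0 in KO cells and had 24.2 scaled reads in WT cells at its 1 peak (adjusted p = 0.00463), so no other peak of this gene can be set beside it.

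**Figure D2:**
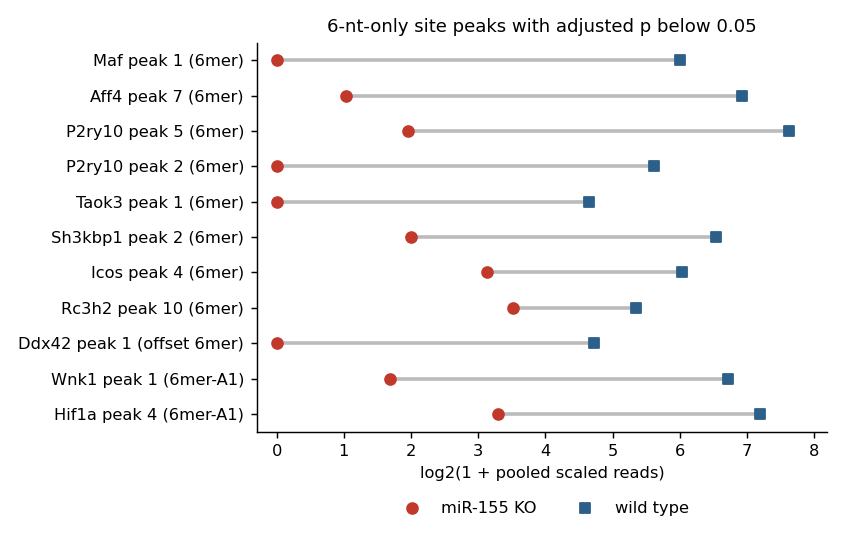
The 11 lowered peaks with log2(1 + pooled scaled reads) on the x axis, in miR-155 KO (circles) and WT cells (squares), ordered by class and size of the difference. Of these, 4 are listed at 0 in KO cells, and Rc3h2 has the smallest gap, with 10.45 scaled reads in KO and 39.7 in WT cells.

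Where the 6-nt site lay in the peak went with the size of the difference among 6mers. In HITS-CLIP the middle of a peak tends to lie near the contact of AGO2 with the RNA. Among 6mer peaks of at least 20 scaled reads, the 18 with the site within 5 nt of the centre had a median log2 KO over WT of -2.88 (quartiles -4.74 and -1.06), and 14 (77.8%) were at -1 or below. The 35 with the site farther away had a median of -0.36 (-0.77 and 0.28), and 8 (22.9%) were at -1 or below. Median reads were 4.94 in KO and 50.9 in WT cells for central sites, against 21.0 and 28.1 for the others. Pearson's r between distance and log2 difference was 0.50 (Spearman's rho 0.58) over these 53 peaks of the same pooled libraries. The distance of 5 nt was chosen after the values were seen, and no test was made. Central peaks could pass the minimum through WT reads alone, as P2ry10 peak 2 did with 0 in KO and 48.3 in WT cells. That favours low values, so the split is a description. With a minimum of 10 scaled reads, 73.1% of 26 central 6mers were at -1 or below. With a minimum of 50 the share was 81.8% of 11. Base composition moved along with position: the sequences of the central group had a median of 70.3% A or T and those of the others 64.4%. Longer 6mer peaks also tended to have higher log2 values (Spearman's rho 0.39). The part of base composition or of peak length in the result was not tested.

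Of the 11 lowered peaks, 9 had their site within 5 nt of the centre, as did 62 of the 235 members of at least 20 scaled reads (26.4%), and the most distant, that of Taok3, lay 6 nt away. Besides the lowered ones, central 6mers at -1 or below included the genes Malt1, Nr3c1, Kdm2a and Clta, of which the last 3 were named after their values were seen. Malt1, a protease and scaffold of NF-kB signalling, was listed at 0 in KO cells and had 26.5 scaled reads in WT cells (adjusted p = 0.156). Nr3c1, the glucocorticoid receptor, was likewise listed at 0 and had 23.4 (adjusted p = 0.855). Kdm2a, a histone demethylase, had 2.09 in KO and 53.5 in WT cells (adjusted p = 0.0680), and Clta, a clathrin light chain, 1.74 and 18.8. The 4 central 6mers above -1 were those of Cggbp1 (-0.93), Tmem64 (-0.88), the transcriptional repressor gene Gfi1 (-0.71) and the glucose transporter gene Slc2a3 (0.94), again named after their values were seen.

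The same split gave less contrast in the other 6-nt classes. For offset 6mers 5 of 15 central peaks (33.3%) were at -1 or below and 7 of 65 others (10.8%), but the medians were -0.09 and -0.04. For 6mer-A1 peaks the counts were 5 of 29 (17.2%) and 11 of 73 (15.1%), and the medians -0.15 and -0.19. In the longer classes, central 8mer peaks had a median of -4.95 (n = 18) and the others -4.68 (n = 17), which is little contrast. Central 7mer-m8 peaks had a median of -4.48 (n = 19) and the others -1.61 (n = 22), and central 7mer-A1 peaks -3.44 (n = 29) and the others -1.58 (n = 24). A contrast by position was thus not particular to 6mers.

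**Figure D3:**
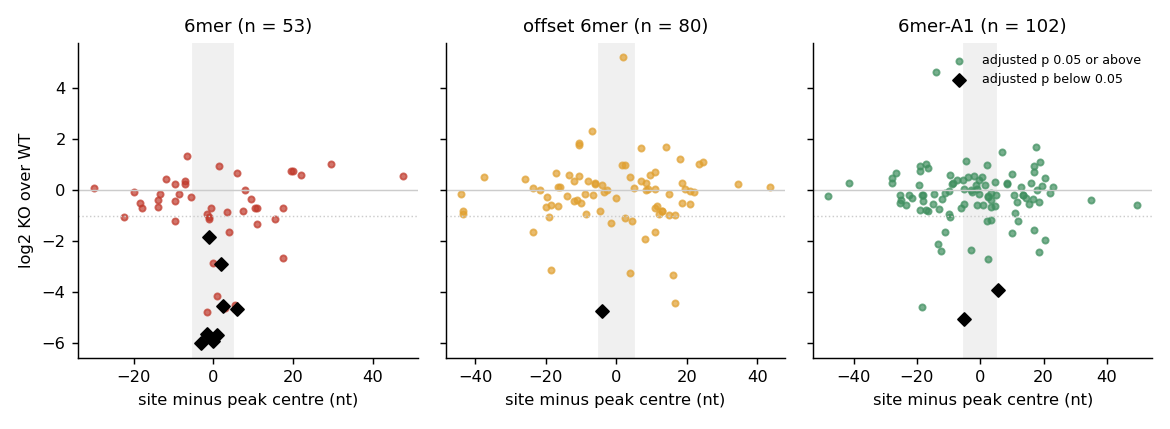
The log2 KO over WT difference (y axis) against the distance of the 6-nt site from the centre of the peak (x axis, nt), for peaks of at least 20 scaled reads in the 3 classes, with lowered peaks as black diamonds and the range within 5 nt shaded. Low 6mer values cluster in the shaded range, where 14 of 18 are at -1 or below, and the other 2 classes have no such cluster.

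Pairing just beyond the 6 bases was read from the sequence as well. A 6mer by definition lacks the Watson-Crick pair to nucleotide 8 of miR-155, but a G there can form a wobble pair. Of the 53 6mers above the minimum, 14 had the wobble and a median log2 KO over WT of -0.86, with 7 at -1 or below. The 38 with a mismatch had -0.71, with 14 at -1 or below, and 1 site lay at the end of its sequence. These medians lay close together, and 7 of the 8 lowered 6mers, P2ry10 peak 2 being the exception, had the mismatch.

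Nucleotide 9 showed a wider split in 2 of the classes. The 18 6mers whose sequence could also pair with nucleotide 9 had a median of -1.73, with 11 (61.1%) at -1 or below. The 34 that could not had -0.68, with 10 (29.4%) at -1 or below. Median reads were 8.60 in KO and 24.2 in WT cells with the pair, and 21.7 and 39.6 without it. All 7 central 6mers with the pair were at -1 or below, and 7 of the 11 other central ones.

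Offset 6mers that pair with nucleotide 9 form an unbroken match of 7 bases, to nucleotides 3 to 9. The 31 such peaks had a median of -0.39 (quartiles -1.15 and 0.10), with 9 (29.0%) at -1 or below. The 48 without the pair had 0.08 (-0.51 and 0.43), with 2 (4.17%) at -1 or below, beside the background of 14.0%. With a minimum of 50 scaled reads, 0 of 13 peaks with the pair were at -1 or below, so this split rests on the less-read peaks. Median reads were 19.6 in KO and 25.4 in WT cells with the pair, 24.9 and 24.3 without. For the 6mer-A1 class, in which nucleotide 7 is unpaired, the medians were -0.17 for 38 peaks with the pair and -0.18 for 54 without. The split by nucleotide 9 was chosen after the values were seen and was not tested; the sequences with the pair had a median of 68.3% A or T among offset 6mers, those without 62.2%.

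**Figure D4:**
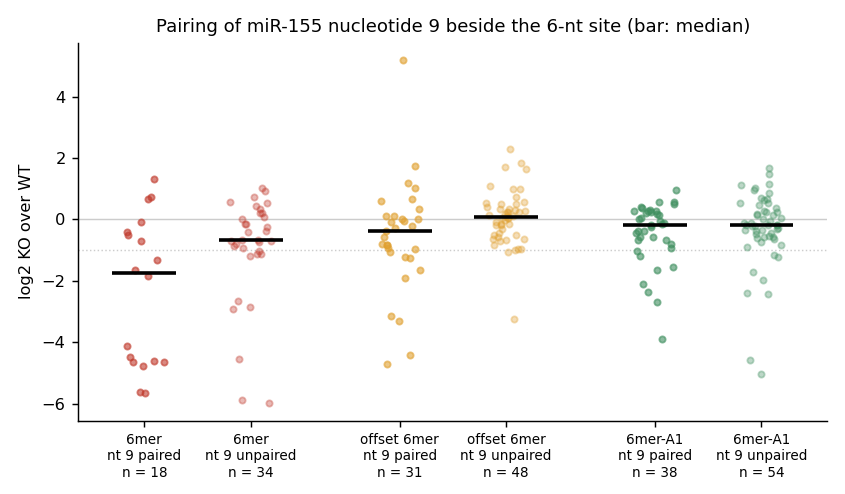
The log2 KO over WT difference (y axis) of peaks of at least 20 scaled reads, split by class and by whether the sequence can pair with nucleotide 9 of miR-155 (x axis), with the median as a bar. Medians are -1.73 and -0.68 for 6mers with and without the pair, -0.39 and 0.08 for offset 6mers, and -0.17 and -0.18 for 6mer-A1 peaks.

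Ddx42, an RNA helicase gene, held the 1 lowered offset 6mer. Its peak 1 was listed at 0 scaled reads in KO cells and had 25.4 in WT cells (adjusted p = 0.00513), which did not pass a Bonferroni adjustment. The other peak of Ddx42 held 18.3 and 22.4. The Ddx42 site is central and pairs with nucleotide 9. The next offset 6mers by log2 difference did not pass. G2e3 peak 6 was listed at 0 in KO cells and had 20.3 scaled reads in WT cells. Zfp568 had 1.11 and 20.2 at peak 1 (adjusted p = 0.130), C78339 1.74 and 25.2 at peak 11, and Zfp238 1.27 and 19.0 at peak 3. Apart from C78339, these sites also pair with nucleotide 9.

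None of the 8 best-read offset 6mers passed the adjusted threshold. Cdkn1b, a cell cycle inhibitor gene, had 274 scaled reads in KO and 336 in WT cells at peak 10 (log2 -0.29). Tmsb4x, which encodes an actin-binding thymosin, had 315 and 279 (0.18), and Laptm4a, a lysosomal membrane protein gene, 136 and 193 (-0.50). Kdm5b, a histone demethylase gene, had 93.7 and 93.6. Larger differences were seen in Osbpl8, a lipid transfer protein gene, with 99.3 and 162 (-0.70), and in Eid1 with 67.1 and 105 (-0.64). Sdcbp peak 8 had 59.0 and 115 (-0.96; p = 0.0365 in the authors' deposited table, adjusted p = 1.00). On the higher side, the cytokine gene Il21 had 35.6 scaled reads in KO cells and was listed at 0 in WT cells, and Ccnd2, a D-type cyclin gene, had 21.5 and 3.60. Neither passed the threshold.

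The lowered 6mer-A1 peaks lay in Hif1a and Wnk1. Hif1a, the oxygen-regulated transcription factor, had 8.85 scaled reads in KO and 146 in WT cells at peak 4 (log2 -3.90, adjusted p = 4.17e-26), the smallest p of any 6-nt-only peak. Its other 23 peaks summed to 4738 and 4138. Wnk1, a kinase of salt transport regulation, had 2.23 scaled reads in KO and 105 in WT cells at peak 1 (log2 -5.03, adjusted p = 4.86e-12), and 389 and 373 over its other 10 peaks. In either gene the summed reads of the other peaks were not lower in KO cells. A single peak could differ from the sum: Hif1a peak 18, a 7mer-m8, had 24.5 and 69.3, without passing the adjusted threshold.

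Other 6mer-A1 peaks with large differences did not pass. Ncapd3, a condensin II subunit gene, had 13.3 scaled reads in KO and 90.7 in WT cells at peak 2 (log2 -2.68, adjusted p = 0.254). Ikzf1, the lymphoid factor Ikaros, had 3.34 and 22.3 at peak 20, and Cnot7, a deadenylase subunit gene, 3.89 and 24.9 at peak 7. The peak of 2610019F03Rik was listed at 0 in KO cells and had 22.7 in WT cells (adjusted p = 0.159).

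Well-read 6mer-A1 peaks mostly lay near 0. Anln, the contractile ring protein anillin, had 225 scaled reads in KO and 294 in WT cells at peak 2 (log2 -0.38). Picalm, a clathrin assembly gene, had 192 and 191 at peak 3, and Tet2, a DNA demethylation gene, 207 and 156 (0.41). Ywhae, a 14-3-3 gene, had 154 and 176. Gzmb, the cytotoxic protease granzyme B, had 88.9 in KO and 31.2 in WT cells at peak 5 (1.48; p = 0.0125 in the authors' deposited table, adjusted p = 0.646), the 1 6-nt-only peak that was higher in KO cells at an unadjusted p below 0.05.

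Of the 8 best-read 6mers, 1 gene each, only that of P2ry10 had a central site. Otud4, a deubiquitinase gene, had 195 scaled reads in KO and 195 in WT cells at peak 25, with the site 8 nt from the centre. A second 6mer of Aff4, peak 6, had 90.5 and 149.9 (log2 -0.72; p = 0.00833 in the authors' deposited table, adjusted p = 0.552), with the site 18 nt from the centre. Il7r, the IL-7 receptor gene, had 89.2 and 142 at peak 11 (-0.66, adjusted p = 1.00). Sub1, a transcription coactivator gene, had 105 and 98.9, and Ythdf3, a reader of methylated RNA, 65.5 and 73.0. Higher in KO cells, without passing, were Tgif1 with 102 and 50.2 and Skil with 36.4 and 13.98, both repressors of TGF-beta signalling.

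Some 3' UTRs held a 6-nt-only peak and, elsewhere, a 7-nt or 8-nt site peak. Of 25 such genes with at least 20 scaled reads in the 6-nt-only peak, 18 also had 20 in the longer-site peak; the best-read peak of each kind was taken. The median log2 KO over WT was -0.57 for their 6-nt-only peaks and -1.92 for their longer-site peaks. At -1 or below were 5 and 13 of the 18, and the longer site had the lower value in 16 genes. For Hif1a this choice took peak 5 (84.8 in KO and 82.5 in WT cells) and left out the lowered peak 4, whose log2 of -3.90 was below the -1.46 of the longer-site peak. Among the best-read pairs Myb and Zfp568 were the exceptions, Zfp568 with 1.11 scaled reads in KO and 20.2 in WT cells at the offset 6mer, and 24.6 and 0 at its 7mer-m8. As an example, Rcor1, a corepressor scaffold, had 49.3 and 38.8 at its 6mer, and was listed at 0 in KO cells with 106 in WT cells at its 7mer-m8. Picalm had 192 and 191 at the 6mer-A1, and 32.2 and 86.9 at a 7mer-m8. In Cd274, the inhibitory ligand PD-L1, the offset 6mer had 73.1 and 72.4 and the 7mer-m8 116 and 270. Longer-site peaks could pass the minimum through WT reads. Of all 129 longer-site peaks of at least 20 scaled reads, 83 had 10 or more in WT cells and fewer than 10 in KO cells. That favours low values for the longer sites, so the comparison within genes is a description.

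**Figure D5:**
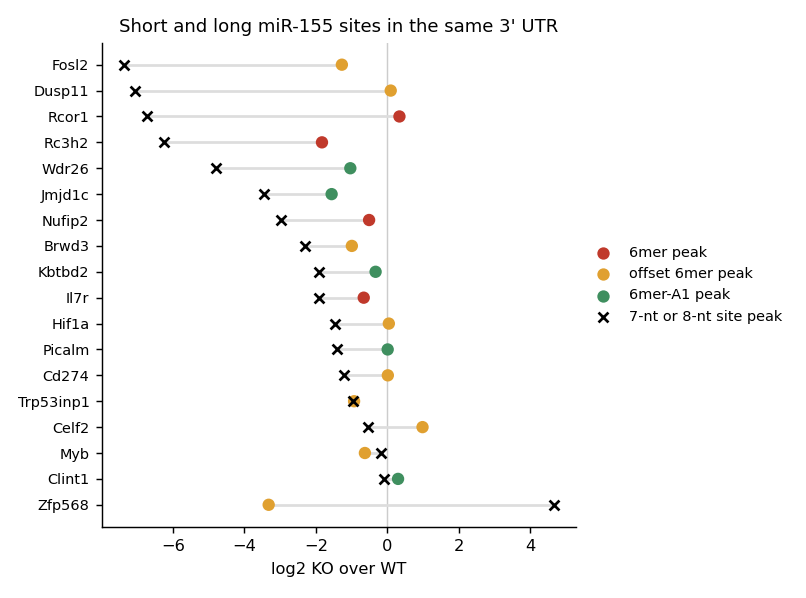
The log2 KO over WT difference (x axis) of the best-read 6-nt-only peak (coloured circles) and of the best-read 7-nt or 8-nt site peak (crosses) in the same 3' UTR, for the 18 genes (y axis) with at least 20 scaled reads in both. The cross lies left of the circle in 16 genes, and Zfp568 has the widest gap the other way.

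Of 35 genes on a list of known miR-155 targets, 27 had peaks and 10 held 17 6-nt-only peaks, 9 of which had at least 20 scaled reads. The list was drawn from general knowledge with earlier results of these data known, so its counts are not independent of these data. Of the 17, 2 were lower in KO cells (Maf peak 1 and Hif1a peak 4) and 0 higher, with backgrounds of 0.574% and 0.0273% over all peaks. The 287 peaks of the listed genes together had 12 called, 10 of them at 7-nt or 8-nt sites. The median log2 of the 9 was -0.21, beside 0.00 over all peaks of that depth. Fosl2, an AP-1 subunit gene, had 10.7 scaled reads in KO and 27.2 in WT cells at its offset 6mer in peak 14 (-1.27, adjusted p = 1.00). Smad5, a BMP signal transducer, had 45.1 and 52.2, and Trp53inp1, a p53-induced stress gene, 28.2 and 54.8 at peak 41.

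In the other lists, T cell receptor and costimulation genes held 3 6-nt-only peaks with 1 lowered (Icos), and lymphocyte transcription factors 8 with 1 lowered (Maf). Genes of cytokine receptors and JAK-STAT held 6, none lowered, and those of the microRNA pathway 5, none lowered, where the background over all peaks was 0.574%. At an unadjusted p below 0.05 in the authors' deposited table, 1 of the 6 was lower (Il7r peak 11, p = 0.0472) and 0 of the 5, beside a background of 2.72%. Il2ra, a subunit gene of the receptor for IL-2, had 45.4 scaled reads in KO and 30.9 in WT cells at its offset 6mer. Tnrc6a, which encodes an Argonaute partner, had 34.9 and 31.6 at a 6mer-A1, and Myb, a transcription factor gene, 43.6 and 67.9 at the offset 6mer of peak 9.

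A 7-nt or 8-nt site of another microRNA family lay in 15 of the 53 6mers (28.3%), 40 of the 80 offset 6mers (50%) and 32 of the 102 6mer-A1 peaks (31.4%) of at least 20 scaled reads, and in 43.4% of all such peaks (16 families, let-7 and miR-17 among them). Among 6mers, 2 of the 15 with such a site (13.3%) and 20 of the 38 without one (52.6%) were at -1 or below, with medians of -0.36 and -1.08. The corresponding counts were 5 and 7 of 40 each for offset 6mers, and 5 of 32 and 11 of 70 for 6mer-A1 peaks. Among 6mers, sequences with such a site had a median of 61.8% A or T and those without one 68.7%. The split was not tested. Of the 11 lowered peaks, 1 held such a site, Icos, with a match to miR-142a-5p.

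Median peak length was 39.0 nt for 6mers and 40.0 nt for the others, and the median start lay 1001, 934 and 878 nt into the 3' UTR for 6mer, offset 6mer and 6mer-A1 peaks, beside 890 nt over all peaks of at least 20 scaled reads. The median share of A or T was 66.0%, 64.8% and 67.3%, beside 63.4%. Within classes a higher share of A or T went with lower values in 6mers (rho -0.36) and offset 6mers (-0.38), less so in 6mer-A1 peaks (-0.07) and in 6233 peaks without a match (-0.08). A 4-nt match to nucleotides 13 to 16 (TCAC), within 20 nt upstream of the site, was found in 2, 6 and 4 peaks of these classes. Anywhere in the sequence, TCAC lay in 14.5% of all peaks. That share covers the whole sequence and peaks of any depth, so it is not a like background for the counts.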

How the data were processed

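AGO2 HITS-CLIP was done on 12 miR-155 KO and 12 WT libraries. Bowtie 0.12.7 and genome build mm9 are named in the submitters' processing notes. The peak caller, read scaling and test were not given in the sources used here. Deposited log2 values, per the file headers, are reads of each genotype and their ratio, WT over KO, and the deposited p-value refers to differential binding. These columns were read as log2(1 + scaled reads) of pooled libraries, and reads were obtained as 2 to that power, minus 1.

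The Benjamini-Hochberg adjustment was applied to the authors' deposited p-values of all 14634 peaks (threshold 0.05); the planned fits over libraries could not be made from pooled reads. What spread between libraries these p-values reflect, and the depth per library, are unknown. Positions are relative to the 3' UTR start, per the file headers. In 14608 peaks the sequence had 6-nt flanks. Sites were searched on the given strand; the site nearest the centre was used. Site motifs came from RefSeq miR-155-5p, and those of 16 other families likewise (miR-150-5p was not searched). Of 561 members, 534 (95.2%) matched a GENCODE M21 transcript on GRCm38, 524 of them in a 3' UTR.

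Genes were named by rule: every lowered peak; per class and 1 peak per gene, the 8 best-read and, from 20 scaled reads, the 5 lowest and 3 highest log2 differences; list members of at least 20 scaled reads; and the best-read pairs of 6-nt-only and longer-site peaks in a gene. Others are marked as chosen after their values were seen. Members and lists were chosen with earlier results of these data known. Adjustment and site search were checked on simulated data. Python 3.11.15, NumPy 2.4.6, pandas 2.3.3, SciPy 1.17.1 and matplotlib 3.10.9 were used. Alternatives covered thresholds, read minimums, pseudocounts and site definitions.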

Additional observations from a re-analysis of the deposited data

How the results depend on the processing

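No paired analysis was possible because the table pools the libraries of each genotype; for the same reason the planned fits with linker, by linker and without each replicate were not run. Of 75 alternatives, 63 left a count within 1.5 times, a median within 0.1 or a share within its exact interval. With Bonferroni adjustment 5 lowered 6mers and 0 lowered offset 6mers remained in count. With no minimum of reads the medians of log2 KO over WT were -1.17 for 6mers, -0.29 for offset 6mers and -0.42 for 6mer-A1 peaks, and with a minimum of 10 the 6mer median was -0.93. Counting sites inside the peak without its flanks, the 6mer median was -0.82 and that of offset 6mers turned positive, 0.034. With a minimum of 50 scaled reads the share at -1 or below was 2.70% for offset 6mers, 8.89% for 6mer-A1 peaks and 0 of 13 offset 6mers pairing with nucleotide 9; with a minimum of 10 it was 24.7% for 6mer-A1 peaks. The cause was not tested. The share for central 6mers, with other distances and minimums added after seeing the data, stayed within its interval, which is wide with 18 peaks. It was 54.5% of 33 peaks with a distance limit of 10 nt and 81.25% of 16 with a limit of 3 nt. Shallow peaks limit precision.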

Other observations

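The lowered 6mer-A1 peaks of Hif1a and Wnk1 both hold TTAATGCT, the stretch identical to nucleotides 1 to 8 of miR-155 itself, which overlaps their CATTAA match. This was seen after the values were known. The stretch lay in 52 of all peaks (0.355%) and in 25 of those with at least 20 scaled reads. Of these 25, 3 were lower in KO cells (Hif1a, Wnk1 and, without a 6-nt match, Fbxo11 peak 6 with 5.93 scaled reads in KO and 55.5 in WT cells, adjusted p = 8.09e-05), beside 1.24% of all peaks of that depth. The median log2 KO over WT of the 25 was -0.05. Of the 6-nt-only peaks, 6 hold the stretch, and only those of Hif1a and Wnk1 had at least 20 scaled reads. Below that minimum, Jak1 peak 12 was listed at 0 in KO cells and had 13.7 in WT cells, and Nf1 peak 4 had 1.04 and 13.3. Celf1 peak 5 had 6.72 and 6.42, and Zfp871 peak 32 had 6.41 and 4.75.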
